A study of Mus musculus with 8 samples.

Results

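The genes described here encode cytosolic sensors of bacterial products and of cell damage together with the inflammatory caspases they control: Nod1, Nod2, Nlrp3, Nlrc4, Naip2, Naip5, Pycard, Casp1 and Casp4. They were chosen as members of the NOD-like receptor family and its caspase partners, with earlier results of these data known. Of the 9 genes, 8 had a probe with that symbol among the 16593 genes named on the array, and Nlrc4 was not analysed here. The 8 genes were read by 12 of the 25697 probes. Casp4 had 3 probes, Nlrp3 and Naip5 had 2 each, and the other 5 genes had 1. Where a gene had several, the brightest by its average across the 8 arrays is called probe 1 and stands for the gene in counts.

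NOD-like receptors are proteins of the cytosol that bind microbial molecules or sense damage through a repeat domain rich in leucine. Nod1 and Nod2 recognise fragments of bacterial peptidoglycan and pass the signal to NF-kappaB and MAP kinases. Nlrp3 responds to many forms of cell stress, and Naip2 and Naip5 bind proteins of bacterial secretion systems and flagellin and then engage Nlrc4. Nlrp3 and Nlrc4 build inflammasomes, in which the adaptor ASC, encoded by Pycard, helps to recruit caspase-1 (Casp1). Caspase-1 cuts the precursors of interleukin 1 beta and interleukin 18 and the pore former gasdermin D. Mouse Casp4, also known as caspase-11, binds lipopolysaccharide in the cytosol and cuts gasdermin D directly. In macrophages several of these genes are known to be raised by interferons or by Toll-like receptor signals before the proteins are activated.

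Peritoneal macrophages from naive C57BL/6 mice were profiled for messenger RNA with Illumina MouseRef-8 v2.0 bead arrays. All groups shared an overnight adherence step with serum and with L929-conditioned medium, which supplies the growth factor M-CSF. They were wild type (WT) or lacked the Fc receptor gamma chain (FcgKO), the signalling adaptor of activating Fc receptors encoded by Fcer1g on chromosome 1, and were left unstimulated or given interferon gamma (IFNγ) at 10 ng/ml for 6 h. Each of the 4 groups had 2 arrays, numbered 1 and 2 in the labels. Whether the arrays of a group represent different mice or culture wells is not given in the sources used here, nor is the age of the mice. The p-values therefore rest on a spread between samples that may be technical only. Values are the deposited intensities, already normalised between arrays, and their number limits the precision. The median probe of each array lay between 102.98 and 103.02, and a probe below it on both arrays of a group is described as at the low end of the scale.

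Fcer1g read between 16987 and 18350 on the 4 WT arrays and between 95.6 and 107 on the 4 FcgKO arrays, as the labels say. Of 10 macrophage markers, 8 had a probe and none was at the low end. Their summed intensity was between 43010 and 47190 in unstimulated WT cells and between 38050 and 39240 with IFNγ. In FcgKO it was between 40620 and 42140 unstimulated and between 38430 and 38650 with IFNγ. By the test described below, 2 of the 8 rose and 4 fell with IFNγ in WT, and 1 rose and 1 fell in FcgKO. Between the genotypes 0 passed unstimulated, and with IFNγ 1 was higher and 1 lower in FcgKO. The shares of all probes are given with the comparisons. Among markers of other cells, the 3 measured for eosinophils were at the low end in every group. Of 5 measured for natural killer cells, Ncr1, Gzma and Eomes were at the low end in every group, and Klrb1c and Prf1 in none. Of 6 measured for dendritic cells, Flt3, Cd209a and Xcr1 were at the low end in every group and Ccr7 in none. Clec9a was so in every group except FcgKO with IFNγ, and Zbtb46 only in unstimulated FcgKO. The 5 measured B cell markers summed to between 1272 and 2465, with Pax5 at the low end in every group, and the 5 measured T cell markers summed to between 620.2 and 794.3. The 6 measured mast cell markers and the 7 measured neutrophil markers differed in their sums between the genotypes and between treatments. Their sums are given beside the comparisons. In bulk samples fewer cells of a type and less RNA per cell cannot be told apart.

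Promoters are shown for Nod1, Casp1 and Casp4, the 3 genes that rose with IFNγ in both genotypes. Each stretch runs from 250 bases before to 50 bases after a gene start in RefSeq, build GRCm38.p6, 5′ to 3′ on the gene's strand. Capitals mark matches to 3 short motifs searched on both strands: GAS (TTCNNNGAA, the gamma-activated site), ISRE (GAAA, any 2 bases, GAAA, bound by interferon regulatory factors) and kappaB (GGG, any 2 bases, TTTCC, bound by NF-kappaB). No matched stretches overlapped.
Nod1 second start, chr6:54971612-54971911, minus strand: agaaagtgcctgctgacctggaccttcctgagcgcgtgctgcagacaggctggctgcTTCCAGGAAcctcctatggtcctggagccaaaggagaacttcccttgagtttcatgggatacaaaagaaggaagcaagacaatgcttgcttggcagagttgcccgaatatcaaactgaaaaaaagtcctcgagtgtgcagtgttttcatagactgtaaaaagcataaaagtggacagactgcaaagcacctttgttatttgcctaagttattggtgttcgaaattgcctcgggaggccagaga
Casp1, chr9:5298267-5298566, plus strand: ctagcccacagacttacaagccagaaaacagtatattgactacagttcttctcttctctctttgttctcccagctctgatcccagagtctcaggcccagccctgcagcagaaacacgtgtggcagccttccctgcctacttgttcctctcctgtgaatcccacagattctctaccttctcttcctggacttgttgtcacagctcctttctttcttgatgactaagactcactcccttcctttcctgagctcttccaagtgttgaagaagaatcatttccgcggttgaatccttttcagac
Casp4 first start, chr9:5308599-5308898, plus strand: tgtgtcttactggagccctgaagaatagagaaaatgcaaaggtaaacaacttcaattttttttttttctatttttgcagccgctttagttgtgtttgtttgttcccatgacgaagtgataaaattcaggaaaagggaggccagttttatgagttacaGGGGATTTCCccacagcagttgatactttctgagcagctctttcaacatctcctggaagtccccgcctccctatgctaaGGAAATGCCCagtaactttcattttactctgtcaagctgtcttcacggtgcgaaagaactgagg
The Nod1 window held 1 GAS match, TTCCAGGAA, which began 193 bases before the start. The window of the other Nod1 start in the table (chr6:54972563-54972862, minus strand) held none of the 3 motifs. Of all 32851 promoter windows of this length, 8.3% held a GAS match, 3.44% an ISRE match and 1.63% a kappaB match. The Casp4 window held 2 kappaB matches, GGGGATTTCC and, on the other strand, GGAAATGCCC, which began 93 and 14 bases before the start. The second Casp4 start in the table lies within the same stretch, and its window held the same 2 matches. The Casp1 window and those of Nod2, Nlrp3, Nlrc4, Naip2, Naip5 and Pycard held none. A match is a description of letters and not a site, and the absence of one says only that these letters are not in this window. In the annotation Casp1, Casp4 and Casp12 are neighbours on chromosome 9 with 0 protein-coding genes between them, and Naip2, Naip5 and Naip6 are neighbours on chromosome 13.

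Which of these genes responded to IFNγ was asked separately in each genotype. In WT macrophages 5 of the 8 measured genes rose and 0 fell: Nod1, Nod2, Nlrp3, Casp1 and Casp4. In FcgKO macrophages 3 of the 8 rose and 0 fell: Nod1, Casp1 and Casp4. A gene is counted where the adjusted p of the moderated linear model (limma, Benjamini-Hochberg over all probes) was below 0.05. Over all probes, 4.97% were higher and 6.56% lower in WT, and 4.6% were higher and 5.75% lower in FcgKO. The median log2 difference of the 8 genes was 0.42 in WT and 0.30 in FcgKO, against -0.01 over all probes in either genotype. At an unadjusted p below 0.05, 6 genes were higher and 1 lower in WT, and 4 were higher and 0 lower in FcgKO. At that threshold 8.37% of all probes were higher and 11.9% lower in WT, and 7.78% and 11.8% in FcgKO. Values of 2 arrays against 2 that do not overlap are common: with IFNγ 20.7% of all probes lay entirely higher and 26% entirely lower in WT, and 19.6% and 26.8% in FcgKO. Differences are given below on the log2 scale after background correction, with the standard error (SE). Folds are ratios of the geometric means of the deposited intensities, which hold background and are smaller for dim probes.

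**Figure D1:**
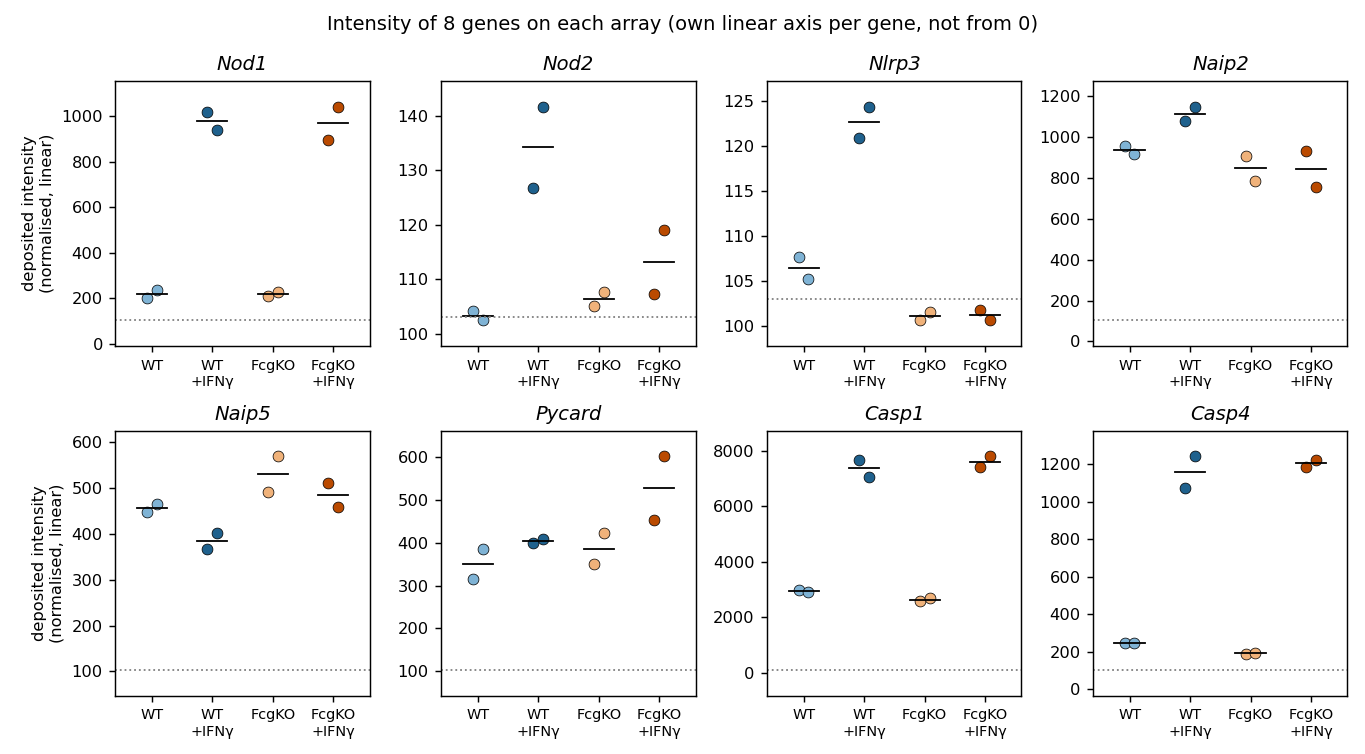
Deposited intensity of probe 1 of each of the 8 genes on each array, by genotype and treatment, with a linear axis of its own for each gene, bars for the mean of 2 arrays and a dotted line at the median probe of the arrays. Nod1, Casp1 and Casp4 lie higher on all arrays with IFNγ than on all without it, while Nlrp3 lies above the dotted line on the WT arrays and below it on the 4 FcgKO arrays.

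Among the sensors, Nod1, which detects peptidoglycan fragments that carry meso-diaminopimelic acid, had the largest rise in WT. Its intensity was 203 and 239 on the unstimulated WT arrays and 1020 and 938 with IFNγ. In FcgKO it was 209.9 and 229 unstimulated and 894 and 1042 with IFNγ. The IFNγ arrays lay above the unstimulated ones with no overlap, and the values of the genotypes overlapped in either condition. The rise was 2.35 (SE 0.11) on the log2 scale in WT, 4.45-fold, with a limma adjusted p of 7.04e-08. In FcgKO it was 2.34 (SE 0.11), 4.4-fold, with an adjusted p of 7.99e-08.

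Nod2, the sensor of muramyl dipeptide, was dim throughout. It read 104.2 and 102.5 on the unstimulated WT arrays, 1 of them below the array median, and 126.8 and 141.7 with IFNγ. The FcgKO arrays gave 105.0 and 107.6 unstimulated and 107.4 and 119.0 with IFNγ. Both WT arrays with IFNγ were higher than all other arrays, and in FcgKO the treatments overlapped. The rise in WT was 0.54 (SE 0.09, limma adjusted p = 0.00229), 1.3-fold, and the difference in FcgKO was 0.13 (95% interval -0.07 to 0.33, adjusted p = 0.563). The WT rise ranged from 0.38 without background correction to 0.92 with an offset of 16 in place of 50, so its size rests on how background is treated.

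Nlrp3, the sensor of the inflammasome named after it, was close to the low end as well. Probe 1 read 107.7 and 105.2 on the unstimulated WT arrays and 120.9 and 124.4 with IFNγ. On the FcgKO arrays it read 100.7 and 101.6 unstimulated and 101.8 and 100.7 with IFNγ. Probe 2 read 101.2 and 105.4 in unstimulated WT cells and 123.1 and 126.2 with IFNγ, and between 96.1 and 102.6 on the 4 FcgKO arrays. For both probes the WT arrays with IFNγ were the highest, and all 4 FcgKO arrays were below the median probe. The rise in WT was 0.30 (SE 0.07, limma adjusted p = 0.012) for probe 1 and 0.39 (SE 0.07, adjusted p = 0.00426) for probe 2, which are 1.15-fold and 1.21-fold. The call of probe 1 was lost without array 2 of unstimulated WT (adjusted p = 0.0783) or array 2 of WT with IFNγ (0.0973), and its size ranged from 0.20 without background correction to 0.52 with an offset of 16. In FcgKO both groups were at the low end, so no fold is given, and the adjusted p was 0.997 for probe 1 and 0.858 for probe 2.

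The NAIP genes, which encode the receptors upstream of Nlrc4, passed the test in neither genotype. Naip2, which recognises the rod protein of type III secretion systems, read 958 and 920.4 in unstimulated WT cells and 1081 and 1149.9 with IFNγ. On the FcgKO arrays it was 909.5 and 786.5 unstimulated and 932 and 754 with IFNγ. Its difference was 0.26 in WT (95% interval 0.02 to 0.49, limma adjusted p = 0.19) and -0.01 in FcgKO (-0.25 to 0.22, adjusted p = 0.978). Probe 1 of Naip5, the flagellin receptor, read 447 and 466 in unstimulated WT cells and 368 and 403 with IFNγ. In FcgKO it read 492 and 569.1 unstimulated and 511 and 459 with IFNγ. Its difference was -0.27 in WT (-0.47 to -0.06, adjusted p = 0.106) and -0.14 in FcgKO (-0.34 to 0.07, adjusted p = 0.536). In WT both arrays of Naip2 were higher and both of Naip5 probe 1 lower with IFNγ, an order that the shares of all probes given above make common. Probe 2 of Naip5 lay between 103.6 and 116.6 on all arrays and showed no such order. The NAIP genes are close paralogs, and whether their probes detect more than 1 of them was not tested.

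Pycard, the gene of the adaptor ASC, read 316 and 385 in unstimulated WT cells and 399 and 409 with IFNγ. In FcgKO it read 350.3 and 422 unstimulated and 454 and 601 with IFNγ. The treatments did not overlap in either genotype, an order that the shares of all probes given above make common. The 2 arrays lay far apart in every group except WT with IFNγ. The difference was 0.23 in WT (95% interval -0.09 to 0.55, limma adjusted p = 0.457). In FcgKO it was 0.48 (0.16 to 0.80, adjusted p = 0.064), and its size rests on single arrays. It was 0.70 without array 1 of FcgKO with IFNγ (adjusted p = 0.0111) and 0.26 without array 2 (adjusted p = 0.418), and 0.33 without array 1 of unstimulated FcgKO (adjusted p = 0.422). Of 15 alternative fits, 6 passed the threshold.

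Both caspase genes rose in both genotypes. Casp1, which encodes the protease of the canonical inflammasomes, read 3002 and 2916 in unstimulated WT cells and 7668 and 7065 with IFNγ. The FcgKO values were 2583 and 2696 unstimulated and 7399 and 7793 with IFNγ. The rise was 1.33 (SE 0.07, limma adjusted p = 3.13e-07) in WT, 2.49-fold, and 1.54 (SE 0.07, adjusted p = 9.12e-08) in FcgKO, 2.88-fold. Casp4, which encodes the protease of the non-canonical inflammasome, read 248 and 247 with probe 1 in unstimulated WT cells and 1076 and 1242 with IFNγ. In FcgKO it read 191 and 193 unstimulated and 1187 and 1223 with IFNγ. Every array with IFNγ was above every array without it for both genes. The rise of Casp4 was 2.40 (SE 0.08, adjusted p = 4.13e-09) in WT, 4.67-fold, and 2.90 (SE 0.08, adjusted p = 8.16e-10) in FcgKO, 6.28-fold.

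The 3 Casp4 probes did not give equal responses. Probe 2 read 124 and 137 in unstimulated WT cells and 339 and 339 with IFNγ, and in FcgKO 109.5 and 118 unstimulated and 295 and 369 with IFNγ. It rose by 1.68 (SE 0.11, limma adjusted p = 1.86e-06) in WT and 1.91 (SE 0.11, adjusted p = 6.56e-07) in FcgKO. Probe 3 lay between 97.9 and 118.9 on all arrays, and its differences of 0.08 in WT (adjusted p = 0.72) and 0.26 in FcgKO (adjusted p = 0.0675) did not pass. The transcripts read by each probe were not determined. Of the 12 probes, 7 rose in WT and 4 in FcgKO.

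Marker sums of other cells moved with IFNγ too. The 6 mast cell markers summed to between 1983 and 2208 in unstimulated WT cells and between 2478 and 2684 with IFNγ, and to between 1223 and 1403 and between 1431 and 1820 in FcgKO. Of the 6, Hdc alone rose, in both genotypes, and 0 fell. The 7 neutrophil markers summed to between 3162 and 4072 and between 4280 and 4571 in WT, and to between 2726 and 2810 and between 3095 and 3555 in FcgKO, with 0 of 7 passing the test. The part of these cells in the responses was not tested.

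**Figure D2:**
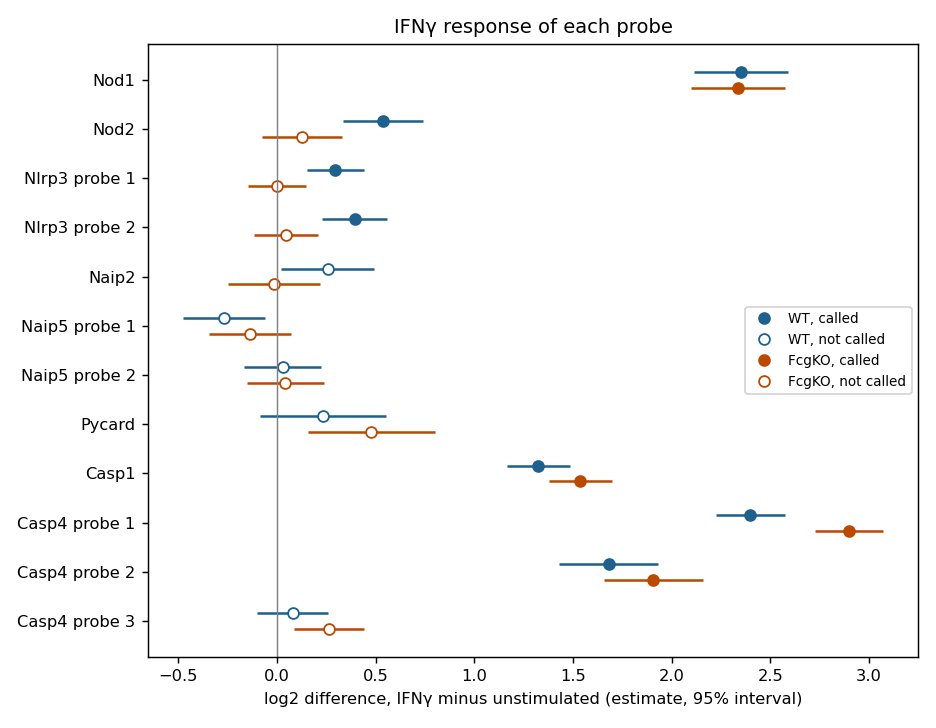
Log2 difference between IFNγ and unstimulated arrays (x axis, background-corrected values) for each of the 12 probes (y axis) in WT (blue) and FcgKO (orange), with 95% intervals. Filled points have an adjusted p below 0.05. Nod1, Casp1 and probes 1 and 2 of Casp4 are filled in both genotypes, and Nod2 and the 2 Nlrp3 probes only in WT, a contrast whose own test did not pass.

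Whether loss of the gamma chain changed the genes without stimulation was asked by comparing the unstimulated groups. Of the 8 genes, 0 were higher and 1, Casp4, was lower in FcgKO, while over all probes 0.245% were higher and 0.479% lower. Casp4 probe 1 was 1.29-fold lower on the deposited scale, a difference of -0.44 (SE 0.08, 95% interval -0.61 to -0.27, limma adjusted p = 0.0291), and the 2 arrays of each group, given above, did not overlap. Probes 2 and 3 were lower by values that did not pass, -0.27 (adjusted p = 0.572) and -0.13 (adjusted p = 0.812). The call of probe 1 is fragile: without any 1 of the 4 unstimulated arrays its adjusted p was between 0.0862 and 0.251. It was also lost without background correction (0.0756), with an offset of 16 (0.133) and with an intensity trend (0.0763).

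The other 7 genes did not pass between the unstimulated genotypes. Nod1 differed by -0.00 (95% interval -0.24 to 0.23, limma adjusted p = 0.997). Casp1 differed by -0.17 (-0.33 to -0.01, adjusted p = 0.605) and Naip5 probe 1 by 0.23 (0.02 to 0.43, adjusted p = 0.56). The median over the 8 genes was -0.06, against 0.00239 over all probes. At an unadjusted p below 0.05, 1 gene was higher and 2 were lower, against 3.94% and 3.81% of all probes. Of all probes, 19% lay entirely higher and 17.6% entirely lower in FcgKO. The mast cell marker sums, given above, were lower on both unstimulated FcgKO arrays than on both WT arrays, with 2 of 6, Cma1 and Cpa3, lower and Ms4a2 at the low end in every group. The neutrophil marker sums were lower as well, with 0 of 7 passing the test and 2 at the low end in each group. The part of these cells in the difference of Casp4 was not tested.

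With IFNγ, 1 of the 8 genes, Nlrp3, was lower in FcgKO and 0 were higher. Over all probes, 1.13% were higher and 1.47% lower. Probe 1 of Nlrp3 was at least 1.19-fold lower in FcgKO (limma adjusted p = 0.0068) and probe 2 at least 1.21-fold lower (adjusted p = 0.00802). These are bounds, because both FcgKO arrays were at the low end, and they set the geometric mean of the WT arrays against the median probe. Neither probe kept its call without array 2 of WT with IFNγ (adjusted p = 0.077 and 0.0914) or array 2 of FcgKO with IFNγ (0.0549 and 0.0701), and probe 2 also lost it without array 1 of WT with IFNγ (0.0559). Without stimulation FcgKO was at the low end as well, and neither Nlrp3 probe passed (adjusted p = 0.785 and 0.874).

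Another 4 genes had an unadjusted p below 0.05 between the genotypes with IFNγ without passing the adjusted threshold. Naip2 was 1.33-fold lower in FcgKO, a difference of -0.43 (95% interval -0.66 to -0.19, limma adjusted p = 0.0669). Nod2 differed by -0.35 (-0.55 to -0.14, adjusted p = 0.0905). Naip5 probe 1 differed by 0.36 (0.15 to 0.57, adjusted p = 0.0815) and Pycard by 0.40 (0.08 to 0.72, adjusted p = 0.269), both toward higher values in FcgKO. The WT and FcgKO arrays of these 4 genes did not overlap, as was so for 21.1% of all probes toward higher and 19.5% toward lower values in FcgKO. Single arrays set the sizes: without array 2 of FcgKO with IFNγ the difference of Pycard was 0.18 and that of Naip2 -0.27, and without array 1 they were 0.62 (adjusted p = 0.0494) and -0.59 (adjusted p = 0.013). The difference of Nod2 lay between -0.46 and -0.24 when 1 array was left out. The genes with the largest responses overlapped: Nod1 differed by -0.02 (-0.26 to 0.22), Casp1 by 0.05 (-0.11 to 0.20) and Casp4 probe 1 by 0.06 (-0.11 to 0.24). The median over the 8 genes was 0.01, against 0.000648 over all probes, and at an unadjusted p below 0.05, 2 genes were higher and 3 lower, against 5.93% and 5.64% of all probes.

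The same marker sums differed with IFNγ. Those of mast cells were lower on both FcgKO arrays than on both WT arrays, with 4 of 6 markers lower (Cma1, Cpa3, Mcpt4 and Tpsb2). Those of neutrophils were lower too, with 3 markers at the low end in WT, Ngp at the low end in FcgKO and 0 of 7 passing the test. Their part in the difference of Nlrp3 was not tested.

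**Figure D3:**
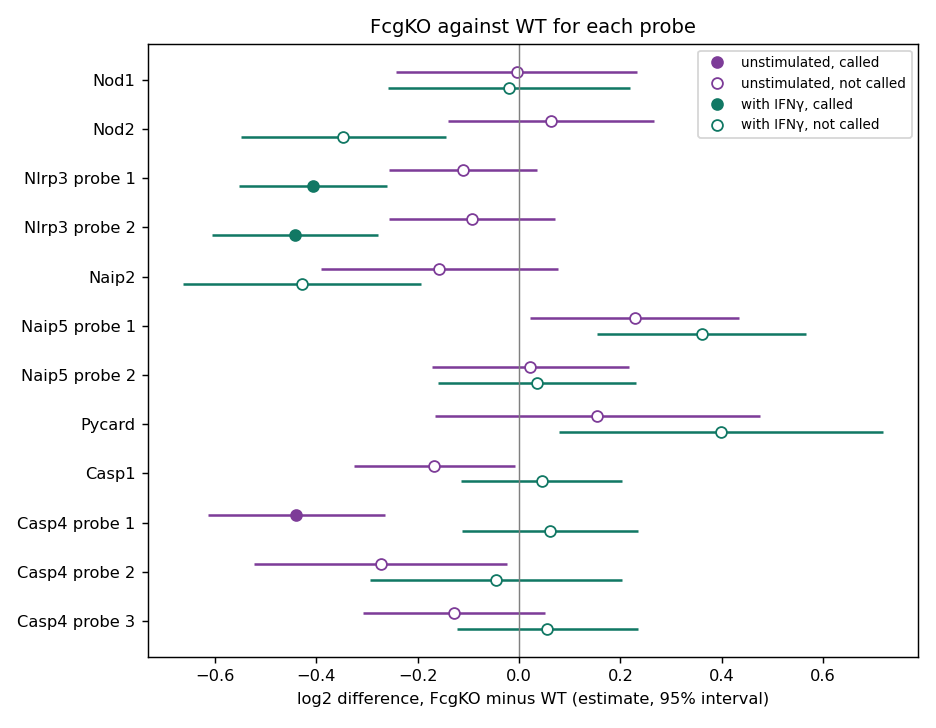
Log2 difference between FcgKO and WT arrays (x axis, background-corrected values) for each of the 12 probes (y axis), unstimulated (purple) and with IFNγ (green), with 95% intervals. Only Casp4 probe 1 is filled (adjusted p below 0.05) without stimulation and only the 2 Nlrp3 probes with IFNγ. Nlrp3 was at the low end in FcgKO, so its points are fitted values and not measured sizes.

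The difference between the IFNγ responses of the genotypes, FcgKO minus WT, was tested directly in a contrast that uses the same 8 arrays as the comparisons above. Of the 8 genes, 0 passed in either direction by limma, while over all probes 0.0233% were higher and 0.0195% lower. At an unadjusted p below 0.05, 1 gene was higher and 2 were lower, against 3.36% and 3.48% of all probes. The difference was 0.50 for Casp4 probe 1 (SE 0.11, 95% interval 0.25 to 0.75, adjusted p = 0.239). It was -0.41 for Nod2 (SE 0.13, -0.70 to -0.12, adjusted p = 0.524). For Nlrp3 both FcgKO groups were at the low end, so a response there could not be measured and no size is given (adjusted p = 0.521 and 0.493). Casp1 differed by 0.21 (-0.01 to 0.44, adjusted p = 0.751), and Nod1 by -0.02 (-0.35 to 0.32, adjusted p = 0.995). The rises of Nod2 and Nlrp3 that passed in WT and not in FcgKO are therefore not shown to differ between the genotypes.

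Listed genes of Nod1 and Nod2 signalling, peptide transporters among them, responded in part. Of 18 such genes listed, 15 had a probe. In WT 4 rose and 1 fell, and in FcgKO 4 rose and 1 fell, against the 4.97% and 6.56% of all probes in WT and the 4.6% and 5.75% in FcgKO given above. The medians were 0.20 and 0.09, against -0.01 and -0.02 over 1 probe of every gene. Cyld, a deubiquitinase that trims the chains built by this pathway, rose by 1.00 (SE 0.08) in WT and 1.10 (SE 0.08) in FcgKO. Slc15a3, a transporter of bacterial peptides out of endolysosomes, rose by 0.88 and 0.89, and Birc2, a ubiquitin ligase, by 0.57 and 0.64, in the same order. Tnfaip3, which encodes the ubiquitin-editing inhibitor A20, rose by 0.46 in WT (limma adjusted p = 0.0176) and differed by 0.02 in FcgKO (adjusted p = 0.956). That WT call was lost with an offset of 16, without array 2 of unstimulated WT and without either array of WT with IFNγ. Otulin, which cuts linear ubiquitin chains, fell by 0.31 in FcgKO and by 0.37 in WT. Its WT call was lost with an offset of 16 or without array 2 of unstimulated WT. Its FcgKO call was lost with an offset of 16 or an intensity trend. Tab2 rose by 0.26 in FcgKO, a call also lost with an offset of 16 or an intensity trend. The FcgKO count was 3 higher and 0 lower with an intensity trend or without any 1 of the 4 FcgKO arrays, and the WT count was 3 higher and 0 lower with an offset of 16.

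Between the genotypes, 0 of these 15 genes passed without stimulation and 1 was lower with IFNγ, when 1.47% of all probes were lower. That gene was Tnfaip3, which read 635 and 498 in unstimulated WT cells and 775 and 742 with IFNγ. In FcgKO it read 409.7 and 456 unstimulated and 438 and 440.4 with IFNγ. All 4 FcgKO arrays were below all 4 WT arrays, an order whose share over all probes was not computed. The difference with IFNγ was -0.84 (SE 0.11, limma adjusted p = 0.00155), and the test of the difference of responses gave -0.43 (adjusted p = 0.617). Ripk2, the kinase that binds Nod1 and Nod2, was not analysed here.

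Of 13 other NOD-like receptor genes listed, 8 had a probe. In both genotypes 2 rose and 1 fell, beside the same shares of all probes. Nlrc5, the transactivator of MHC class I genes, read 190.3 and 175 in unstimulated WT cells and 953 and 1032 with IFNγ, a rise of 2.70 (SE 0.08) in WT and 2.71 (SE 0.08) in FcgKO. Ciita, its counterpart for MHC class II genes, rose by 0.80 in WT, a call lost without array 2 of unstimulated WT or either array of WT with IFNγ, and by 1.42 in FcgKO. Nlrc3, known as an inhibitory member, fell by 0.90 in WT and by 0.80 in FcgKO. With IFNγ it was higher in FcgKO by 0.50 (SE 0.08, limma adjusted p = 0.00609), a call lost without array 1 of WT with IFNγ. The median of the 8 genes was -0.04 in WT and 0.02 in FcgKO.

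Of 30 inflammasome partners, targets and regulators listed, 26 had a probe. The list was chosen with earlier results of these data known and holds interferon-induced genes such as Gbp2, so its counts are descriptive. In WT 13 rose and 1 fell, and in FcgKO 13 rose and 0 fell, with medians of 0.35 and 0.33. The FcgKO calls of Txnip and Casp8 were lost with an offset of 16 or an intensity trend. That of Txnip was also lost without any 1 of the 4 FcgKO arrays. That of Casp8 was also lost without array 1 of unstimulated FcgKO or array 2 of FcgKO with IFNγ. The WT call of Il1a, which rose, was lost without array 2 of WT with IFNγ. The WT call of Pstpip1, which fell, was lost without that array or array 2 of unstimulated WT. Over all probes 4.97% rose and 6.56% fell in WT and 4.6% and 5.75% in FcgKO, and the medians over 1 probe of every gene were -0.01 and -0.02. The guanylate-binding protein Gbp2, an interferon-induced GTPase that attacks membranes of vacuoles and bacteria, rose by 5.22 (SE 0.13) in WT and 5.72 (SE 0.13) in FcgKO. Gbp5 was at the low end without IFNγ, at 96.4 and 94.5 in WT and 88.4 and 92.1 in FcgKO, and read 1112 and 1142 in WT and 620 and 686 in FcgKO with IFNγ. It was at least 10.9-fold higher with IFNγ in WT and at least 6.33-fold higher in FcgKO. Irf1, the transcription factor that drives many interferon-induced genes, rose by 3.61 and 3.94, and the GTPase Irgm1 by 2.13 and 2.24, in WT and FcgKO.

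The substrates of the caspases were looked at after their values were seen. Gsdmd, which encodes gasdermin D, rose by 0.95 (SE 0.10) in both genotypes. Il18 rose by 1.06 (SE 0.13) in WT and 1.14 (SE 0.13) in FcgKO. Il1b read 679 and 747 in unstimulated WT cells and 879.5 and 818 with IFNγ, and 286 and 339.5 in unstimulated FcgKO cells and 633 and 207 with IFNγ. Its responses of 0.26 in WT (limma adjusted p = 0.836) and 0.21 in FcgKO (adjusted p = 0.878) did not pass, and the 2 FcgKO arrays with IFNγ lay far apart. Every FcgKO array of Il1b was below every WT array, an order whose share over all probes was not computed. The difference between the genotypes did not pass without stimulation (limma adjusted p = 0.286) or with it (adjusted p = 0.132).

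**Figure D4:**
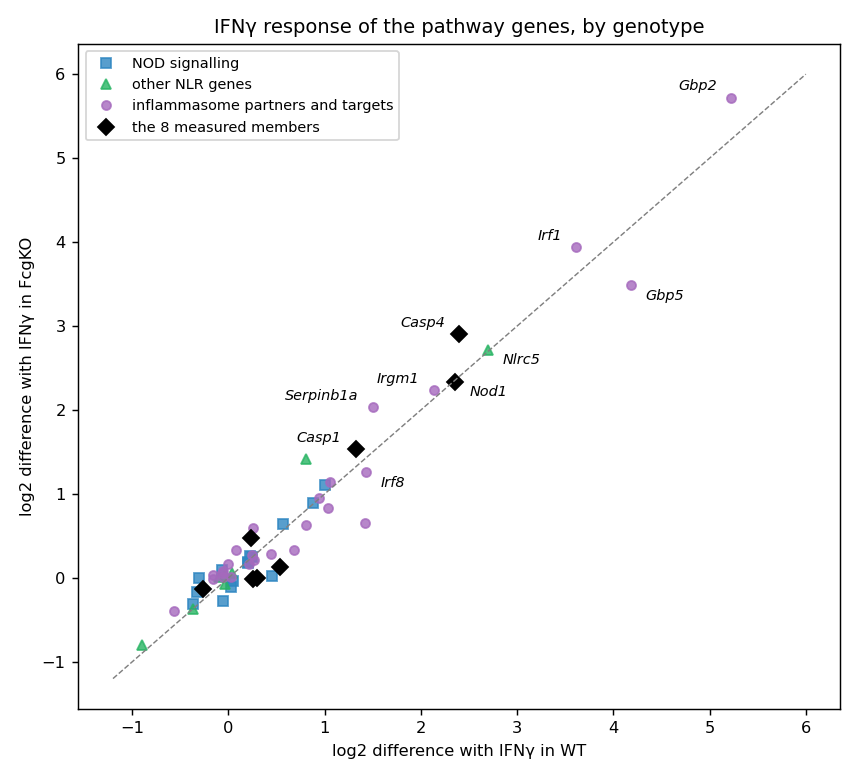
Log2 difference with IFNγ in WT (x axis) against that in FcgKO (y axis) for the listed genes of NOD signalling (squares), other NOD-like receptors (triangles), inflammasome partners and targets (circles) and the 8 measured members (black diamonds), each by its probe 1. The dashed line marks equal differences, and Casp4, Nod1 and Casp1 lie among the larger responses, with Gbp2, Irf1 and Gbp5 above them.

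Between the genotypes 1 of these 26 genes was higher and 2 were lower without stimulation, and 2 were higher and 5 lower with IFNγ. The shares of all probes were 0.245% and 0.479%, and 1.13% and 1.47%, in that order. Aim2, the cytosolic DNA sensor that also recruits ASC, was higher in FcgKO by 0.99 (SE 0.08, limma adjusted p = 0.000156) unstimulated and by 1.01 (SE 0.08, adjusted p = 5.82e-05) with IFNγ. It read 148 and 156 in unstimulated WT cells and 276 and 258 in unstimulated FcgKO cells. With IFNγ it read 166 and 182 in WT and 320 and 308 in FcgKO. Whether loss of the gamma chain accounts for the difference of Aim2 was not tested. Panx1, a channel linked to ATP release, was lower by 0.46 (adjusted p = 0.00996) unstimulated, a call lost without array 1 of WT or array 2 of FcgKO and with an offset of 16, and by 0.66 (adjusted p = 0.000413) with IFNγ. Mefv, which encodes the sensor pyrin, was at the low end in FcgKO and at least 1.15-fold lower there unstimulated (adjusted p = 0.0242), a call lost in 7 alternative fits with an adjusted p of up to 0.256. Gbp5 was lower in FcgKO by 0.82 with IFNγ (adjusted p = 0.000154). Il1a, which encodes interleukin 1 alpha, was lower by 1.35 with IFNγ (SE 0.28, adjusted p = 0.0283), a call lost in 6 alternative fits, among them those without either array of WT with IFNγ. The count with IFNγ was 1 higher and 3 lower with an offset of 16 or without array 2 of FcgKO with IFNγ. It was 1 higher and 2 lower without array 1 of WT with IFNγ, and 2 higher and 2 lower without array 2 of WT with IFNγ.

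The genes whose pattern over the 8 arrays was most like each member were found by Pearson's r of log2 values, among 754 to 756 probes. These were probes of other named genes that varied by at least 1 on the log2 scale and were above the array median on at least 2 arrays. The arrays with and without IFNγ form separate clusters for the genes that responded, so these values describe the arrays and carry no p. For Nod1 the closest were Irgm1 (r = 0.998), Psmb10 (0.998) and Psmb9 (0.997), with 241 probes above 0.95. For Casp1 they were Samhd1 (r = 0.999), Irf1 and Gbp2, with 257 probes above 0.95, and for Casp4 Irf1 (r = 0.998), Gvin1 and Gbp2, with 250. Nlrp3, which combined a rise in WT with low values on every FcgKO array, was most like Ifi205 (r = 0.991), Leng9 (0.979) and Kif3c (0.978), with 13 probes above 0.95. The closest gene was Mtmr14 for Nod2 (r = 0.941), Dusp16 for Naip2 (0.954), Mtus1 for Naip5 (0.917) and P2ry13 for Pycard (0.962). Nlrp3, Nod2, Naip2, Naip5 and Pycard themselves varied by less than 1 on the log2 scale (0.31, 0.47, 0.61, 0.63 and 0.93, in that order).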

How the data were processed

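The members and the gene lists were chosen with earlier results of these data known. The deposited intensity values, on a linear scale from 82.1 to 22479, came from GenomeStudio, per the submitters' processing notes, which give no version. Once sorted, the 8 arrays' values were within 0.0048 (log2) of each other, which means that the authors had already normalised them between arrays and no quantile step was added. Another deposited table has 16 columns that could not be assigned to samples and was not used, so a filter on detection p-values was not run. Groups were taken from the sample titles.

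Normexp background correction (offset 50) was followed by log2 and by a model with 1 mean per group over all 8 arrays (limma 3.58.1, lmFit and eBayes, R 4.3.3). It had 4 residual degrees of freedom, and a prior of 7.05 degrees of freedom with a prior SD of 0.0799. The 5 comparisons were adjusted by Benjamini-Hochberg over 25697 probes. The platform annotation named 23978 probes with 1 gene, 1719 with none and 0 with several, and 23962 matched the RefSeq gene table. The correction spreads dim values, so the size of a dim gene's difference depends on the offset, and arrays have no read depth. Bounds on folds compare the deposited log2 means with the higher of the array median and the probe's value. Replicates correlated with r between 0.9955 and 0.9966 across probes. All members were described. From each list up to 4 genes with the largest absolute differences among those passing were named, with the exceptions stated. The code of the fit was checked on simulated arrays with independent noise and known changes. Such data hold no variation between animals and no effect shared by arrays, so they do not bear on the calls reported here. The alternatives were no background correction, an offset of 16, a filter on dim probes, 1 probe per gene, an intensity trend, a replicate block, fits to the 4 arrays compared and fits without each array. List counts under them were added after the data were seen.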

Additional observations from a re-analysis of the deposited data

How the results depend on the processing

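Under 15 alternatives, 42 of the 60 results for a probe in a comparison never passed the threshold, 14 passed in the reported fit and 4 only in an alternative, and none changed direction where called. The IFNγ responses of Nod1, Casp1 and probes 1 and 2 of Casp4 passed in every alternative run. The number of genes passing was 4 to 5 for the IFNγ response in WT and 3 to 4 in FcgKO, the fourth being Pycard. For FcgKO against WT unstimulated it fell from 1 to 0 with no background correction, an offset of 16 or an intensity trend, and lay between 0 and 1 when 1 array was left out. For FcgKO against WT with IFNγ it was 4 in place of 1 with the replicate block (Nod2, Nlrp3 and Naip2 lower, Pycard higher) and between 0 and 3 when 1 array was left out, with 3 reached without array 1 of FcgKO with IFNγ. For the difference of responses it was 0 throughout. The labels do not say that a replicate number marks a shared animal or day. Deviations of same-numbered arrays correlated with r from -0.0307 to 0.205. Over all probes, the replicate block moved the unstimulated genotype calls from 63 higher and 123 lower to 128 and 191. An offset of 16 moved them to 32 and 85, those with IFNγ from 290 and 377 to 156 and 251, the WT response's lower calls from 1685 to 1006 and the FcgKO response's from 1477 to 834. The cause was not tested. With 2 arrays a group and dim Nod2, Nlrp3, Naip5 probe 2 and Casp4 probe 3, differences in these are measured close to background.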
